A study of Yarrowia lipolytica with 12 samples.

Results

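The 54 genes described here were low in wild-type *Yarrowia lipolytica* and higher in libraries that carry a deletion label, Yl*rep1*Δ or Yl*ngs1*Δ. They were chosen by their levels. A level is given as CPM, the reads of a gene for every 1000000 reads counted in its library. A gene entered when its mean was under 5 CPM over the 6 wild-type libraries, when its mean over the 6 mutant-labelled libraries was at least 2 CPM and at least 2.5 times the wild-type mean, and when its lowest Yl*ngs1*Δ-labelled library lay above its highest wild-type library. Of 6400 genes, 1000 had such a low wild-type mean, 353 of these reached 2 CPM in the mutant-labelled libraries, 73 of these reached the ratio, and 69 met the last condition, which by itself was met by 14.9% of all genes. Leaving out genes that the study itself lists in its gene tables, and 5 others set aside by name, removed 15 of the 69. Because the levels in wild-type and mutant-labelled libraries chose the genes, those levels are a description. Calls made on them below show only what the rule picked and support nothing.

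RNA was sequenced from 12 samples of strain PO1a (MATA leu2-270 ura3-302) in 4 groups of 3, all grown in liquid YNB medium with GlcNAc (N-acetylglucosamine, an amino sugar of chitin and of bacterial walls) and uracil to an OD600 of about 0.8. Wild-type cells carried the vector pYL27 (WT/Vec) or pYL27-4NAG (WT/4NAG), a centromeric plasmid on which the YlACT1 promoter drives 4 genes of GlcNAc uptake and breakdown (Yl*NAG1*, Yl*DAC1*, Yl*NAG5* and Yl*NGT1*). The other 2 groups carried the same 4NAG plasmid in strains labelled Ylrep1Δ::loxR/P and Ylngs1Δ::loxR/P, each a single deletion strain. The mutants were therefore grown only with the 4 GlcNAc genes on a plasmid and never with the vector alone, so the deletions were compared in cells that also carried 4NAG. The paper reports that both deletion strains with the GlcNAc plasmid grew more slowly than wild type in liquid GlcNAc medium. It cautions that this may have affected gene expression. In its microscopy of cells from that medium, these strains formed short filaments and wild type stayed in yeast form. Whether growth rate or cell form contributed to the levels below was not tested. The sources used here do not say whether replicates were separate cultures, and each p-value below therefore measures only how far these libraries spread.

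In *Candida albicans*, Rep1 is a DNA-binding protein of the Ndt80 family, and it brings Ngs1 to the promoters of genes for GlcNAc use. Ngs1 is a Gcn5-related acetyltransferase that senses GlcNAc and acetylates histones there. *Y. lipolytica* can grow as round cells or as filaments, and in such dimorphic fungi genes for nutrient uptake, secreted enzymes and the cell surface are among those whose levels change with food source or growth form. The genes below are ordered by such roles: membrane transport, secreted and vacuolar enzymes, RNA, cell polarity and division, the cell surface, and the large group with no recognised relative.

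Library totals ran from 15667204 to 22650213 counts. Reads of the gene named as deleted did not vanish in every mutant library. Yl*REP1* (YALI0D24860) stood at 20.4, 12.5 and 70.8 CPM in Yl*rep1*Δ-labelled replicates 1, 2 and 3, which is 24.8%, 15.1% and 86.0% of the WT/4NAG mean of 82.3 CPM. Yl*NGS1* (YALI0E20185) stood at 0.0563, 15.8 and 31.6 CPM in Yl*ngs1*Δ-labelled replicates 1, 2 and 3, or 0.0779%, 21.8% and 43.7% of the WT/4NAG mean of 72.2 CPM. These libraries go against their labels in part, and groups are therefore called by their labels throughout. Some results are also given without Yl*rep1*Δ-labelled replicate 3: the number of genes called, the ratio for the median gene and the direction between the labels. Means, ratios and fold changes of single genes include it.

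The 54 genes stayed low under the deletion labels too. Their wild-type means ran from 0.0314 to 4.64 CPM (median 1.32), and their means over the 6 mutant-labelled libraries ran from 2.09 to 29.1 CPM (median 8.57), while the median of all 6400 genes was 44.7 CPM in those libraries, without regard to gene length. The ratio of the means ran from 2.53 to 202, with a median of 4.78; it was at least 5 for 26 of the genes, at least 10 for 7 and at least 20 for 4. The words "nearly silent" fit some of them better than others. In wild type 16 of the 54 had a mean under 1 CPM and 18 had a mean of 2 CPM or more, and the median gene had 162 reads over the 6 wild-type libraries. The fewest were the 4 reads of YALI0C19558 and the 16 reads of YALI0A20548.

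**Figure D1:**
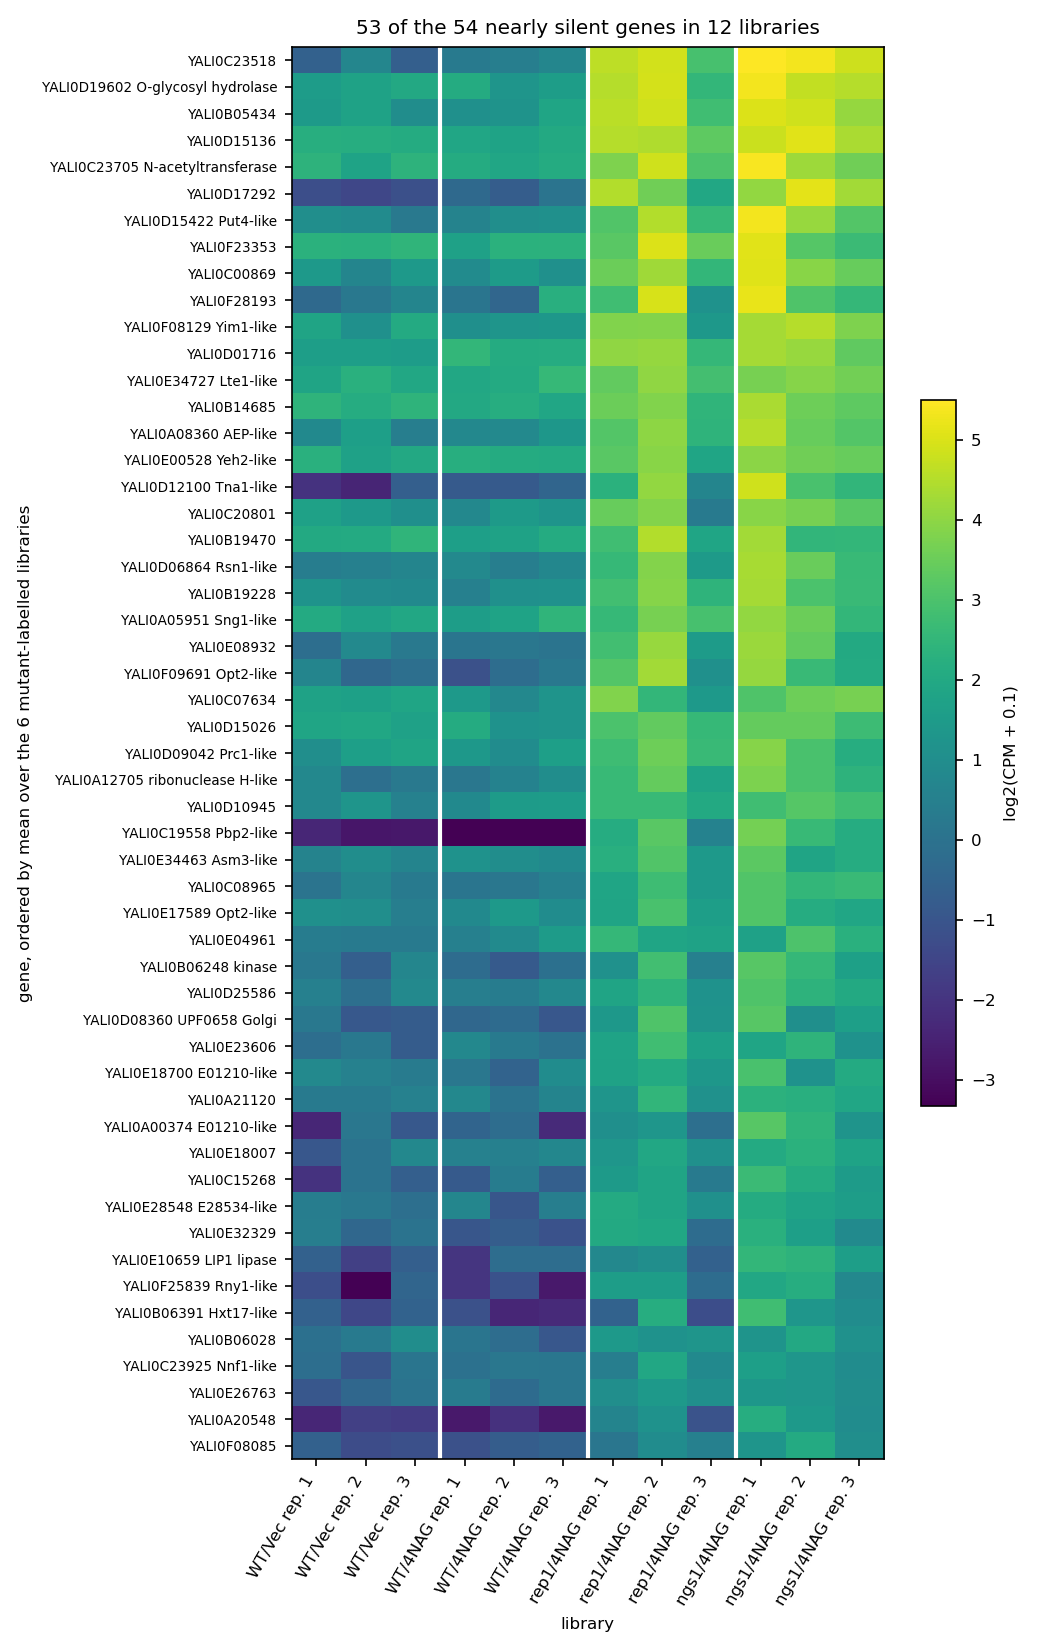
Level of 53 of the 54 genes (rows, ordered by the mean over the 6 mutant-labelled libraries) in each of the 12 libraries (columns), as log2(CPM + 0.1). The 6 wild-type columns are darker than the mutant-labelled ones in most rows. Over all 54 genes, drawn or not, Yl*rep1*Δ-labelled replicate 3 is the lowest of the 6 mutant-labelled libraries for 43.

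Summed over the 54 genes, the level was alike in all 6 wild-type libraries. It was 98.8, 95.2 and 101 CPM in WT/Vec and 92.2, 91.0 and 108 CPM in WT/4NAG. Under the Yl*rep1*Δ label it was 406, 650 and 191 CPM, and under the Yl*ngs1*Δ label it was 838, 549 and 376 CPM. Every mutant-labelled library was above every wild-type library, which the choice of genes largely fixes. Within each deletion label, however, the highest sum was 3.41 times the lowest for Yl*rep1*Δ and 2.23 times for Yl*ngs1*Δ, and the sums ran opposite to the reads of the gene named as deleted: the library with the fewest Yl*REP1* reads (replicate 2) had the highest sum and the one with the most (replicate 3) the lowest, and likewise for Yl*NGS1*, with replicate 1 the lowest in its reads and the highest in the sum. With 3 libraries under each label this order was not tested.

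**Figure D2:**
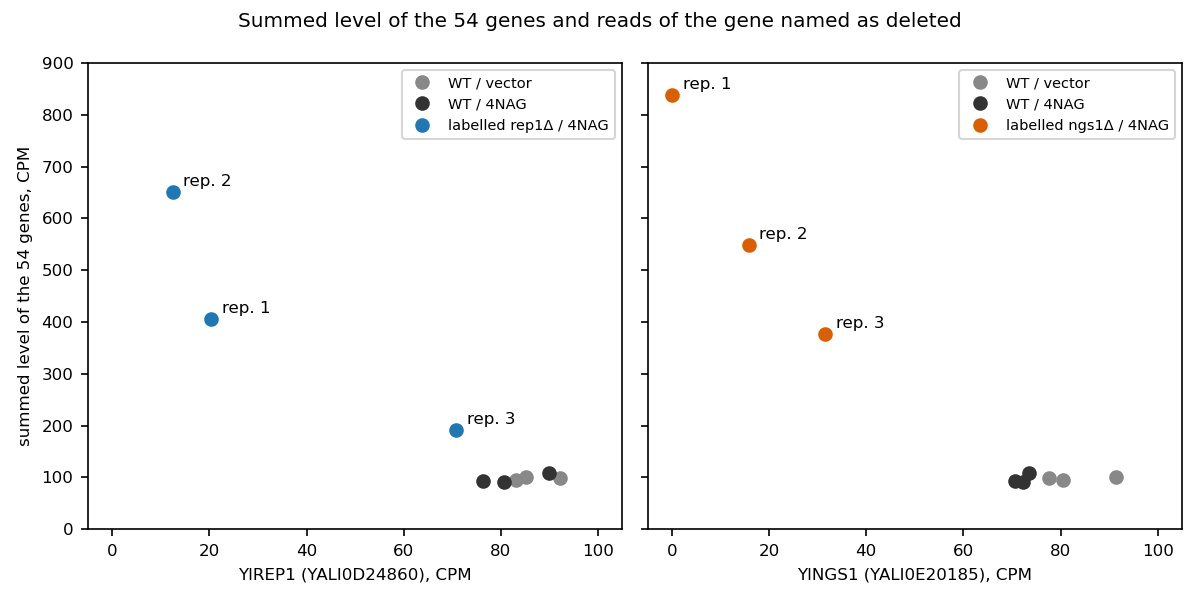
Summed level of the 54 genes (vertical axis, CPM) against the CPM of Yl*REP1* (left) or Yl*NGS1* (right), 1 point per library. The 6 wild-type libraries sit between 91.0 and 108 CPM. Yl*rep1*Δ-labelled replicate 3, with 86.0% of the wild-type Yl*REP1* level, has the lowest sum of the mutant-labelled libraries, 191 CPM.

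The same order of libraries was found gene by gene. In the Yl*rep1*Δ-labelled group, 41 of the 54 genes (75.9%) had replicate 2 above replicate 1 and replicate 1 above replicate 3, against 17.5% of all 6400 genes. In the Yl*ngs1*Δ-labelled group, 36 of the 54 (66.7%) had replicate 1 above replicate 2 and replicate 2 above replicate 3, against 40.0% of all genes. Both orders held in 30 of the 54 genes (55.6%), against 10.2% of all genes. Among the 274 other genes called higher in the Yl*ngs1*Δ-labelled libraries, 43.4% had both orders, so the order was not a property of the low-level genes alone. The highest of the 6 mutant-labelled libraries was Yl*ngs1*Δ-labelled replicate 1 for 36 genes, replicate 2 of that label for 10, Yl*rep1*Δ-labelled replicate 2 for 7 and replicate 1 for 1. The part that the remaining reads of the deleted genes play in these differences was not tested.

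The rule set no condition on single Yl*rep1*Δ-labelled libraries, although it used their mean. Replicate 2 lay above the highest wild-type library for 54 of the 54 genes, replicate 1 for 53 and replicate 3 for 42. Over all 6400 genes the same was true of 45.5%, 25.5% and 34.3%. All 3 libraries lay above the highest wild-type library for 42 genes, against 10.4% of all genes, and replicates 1 and 2 together did for 53. Because the rule used the mean of these libraries, the higher shares among the 54 were favoured by the choice. The 12 genes whose replicate 3 fell within or below the wild-type range were YALI0A00374, YALI0B06248, YALI0B06391, YALI0B19470, YALI0C07634, YALI0C15268, YALI0C20801, YALI0E00528, YALI0E10659, YALI0E32329, YALI0F08129 and YALI0F28193. In YALI0C20801 replicate 3, at 1.15 CPM, was below the lowest wild-type library, at 1.64 CPM. For the median gene, the Yl*rep1*Δ-labelled mean was 3.79 times the wild-type mean with replicate 3 and 4.93 times without it.

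Whether the 4NAG plasmid alone moved these genes was asked in wild-type cells. The rule did not use the difference between the 2 wild-type groups. It did limit the wild-type mean and the highest wild-type library, so a gene with a large difference between these groups was less likely to enter. An absence of calls was therefore favoured by the choice of genes. None of the 54 genes was called. A call, here and below, needed an adjusted p under 0.05 (edgeR quasi-likelihood test, Benjamini-Hochberg over all genes tested) and at least a 2-fold change. Of the 54 genes, 49 had enough reads to be tested, and YALI0A20548, YALI0B06391, YALI0C19558, YALI0D12100 and YALI0F25839 did not. The background was 11 of 6043 genes called, or 0.182%. The log2 fold changes of the 49 genes (WT/4NAG over WT/Vec) had a median of 0.03, ran from -1.10 to 1.22, and were positive for 26 genes. Their standard errors ran from 0.20 to 0.71 with a median of 0.35. At that median a 2-fold difference would probably not have been called, so such differences could have been missed in many of these genes. At an unadjusted p under 0.05, without a fold threshold, 5 of the 49 passed, against 25.7% of all genes tested. DESeq2 and limma each called 0 of the 54.

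The 5 genes that passed the unadjusted threshold moved in both directions. YALI0D01716, weakly similar to a *Debaryomyces hansenii* protein, had 2.99, 3.00 and 2.85 CPM in WT/Vec and 5.63, 4.16 and 4.35 CPM in WT/4NAG, with a log2 fold change of 0.70 ± 0.22 (SE, edgeR adjusted p = 0.0487). The 2 wild-type groups did not overlap for this gene, but the change was under 2-fold. YALI0D17292, a short gene with no recognised relative, had 0.333, 0.265 and 0.344 CPM in WT/Vec and 0.717, 0.508 and 0.954 CPM in WT/4NAG (log2 fold change 1.22 ± 0.53, edgeR adjusted p = 0.161). YALI0E32329, also without a relative, went the other way, with 1.28, 0.662 and 0.934 CPM in WT/Vec and 0.410, 0.508 and 0.371 CPM in WT/4NAG (log2 fold change -1.10 ± 0.47, edgeR adjusted p = 0.153). These groups did not overlap either, but neither gene passed after adjustment. The other two were YALI0C07634, with a log2 fold change of -0.60 ± 0.26 (edgeR adjusted p = 0.151), and YALI0E04961, with 0.78 ± 0.35 (edgeR adjusted p = 0.172).

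**Figure D3:**
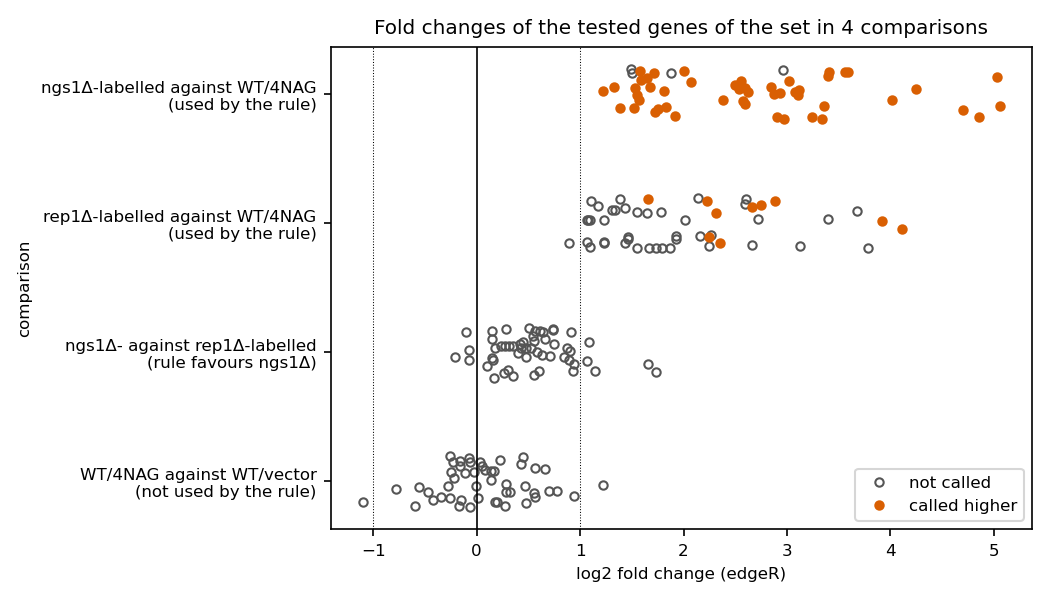
Log2 fold change (edgeR) of each tested gene of the 54 in 4 comparisons, 1 circle per gene, filled where called; dotted lines mark a 2-fold change, vertical spread is for legibility, and YALI0C19558, with no reads in WT/4NAG, is not drawn. In wild-type cells the 4NAG plasmid gave values centred on 0.03 with none called, though the limits on wild-type levels disfavoured large differences there. The comparisons with WT/4NAG lie to the right because they were used to choose the genes.

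Compared with WT/4NAG, 50 of the 54 genes were called higher in the Yl*ngs1*Δ-labelled libraries and 10 of the 52 tested in the Yl*rep1*Δ-labelled ones, and none was called lower. The background was 5.36% and 1.06% of all genes called higher, and 2.3% and 0.331% called lower. These counts describe what the rule picked. The median log2 fold change was 2.58 for Yl*ngs1*Δ and 1.83 for Yl*rep1*Δ, with values from 1.22 to 5.06 and from 0.89 to 4.11 when YALI0C19558 is left aside. Median standard errors were 0.41 and 0.45. The count for Yl*rep1*Δ depended on single libraries: it was 41 without its replicate 3, 1 without its replicate 2, 20 without its replicate 1, and 0 without any one of the WT/4NAG replicates. The count for Yl*ngs1*Δ was 32, 30 and 35 without WT/4NAG replicate 1, 2 or 3.

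The 4 genes not called in the Yl*ngs1*Δ-labelled libraries were YALI0B19470, YALI0E04961, YALI0F23353 and YALI0F28193. The 10 called in those labelled Yl*rep1*Δ included the protease relatives YALI0A08360 and YALI0D09042, the permease relative YALI0D15422 and 6 genes without a relative: YALI0B05434, YALI0B19228, YALI0C00869, YALI0C23518, YALI0D15136 and YALI0D17292.

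In the values that follow, the wild-type level of a gene is given as the lowest, median and highest of the 6 wild-type libraries, and the levels under each deletion label as replicates 1, 2 and 3. Means carry the SD over libraries. Gene roles come from the study's annotation of its differentially expressed genes and are matches to a named species unless stated; 52 of the 54 genes have one.

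Membrane transporters were 6 of the 54. The proline permease relative YALI0D15422 (similar to *Saccharomyces cerevisiae* Put4, which takes up proline with high affinity) had the highest mean of them per length, 10.5 FPKM over the mutant-labelled libraries. It had 1.08, 1.88 and 2.07 CPM in wild type, 8.52, 22.0 and 5.87 CPM under the Yl*rep1*Δ label, and 40.0, 17.4 and 8.79 CPM under the Yl*ngs1*Δ label. All 6 mutant-labelled libraries were above all wild-type libraries, and the means were 12.1 ± 8.67 CPM (n = 3) for Yl*rep1*Δ, 22.1 ± 16.1 CPM (n = 3) for Yl*ngs1*Δ and 1.71 ± 0.379 CPM (n = 6) for wild type.

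YALI0D12100, similar to *C. albicans* Tna1, a putative transporter of nicotinic acid, had one of the largest ratios of the set. It had 0.0883, 0.461 and 0.636 CPM in wild type, 4.84, 16.5 and 1.53 CPM under the Yl*rep1*Δ label and 29.2, 7.73 and 5.47 CPM under the Yl*ngs1*Δ label. The mean over the mutant-labelled libraries was 28.0 times that of wild type, which rests on 47 wild-type reads. The 2 highest libraries, Yl*ngs1*Δ-labelled replicate 1 and Yl*rep1*Δ-labelled replicate 2, were those with the fewest reads of their deleted gene.

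The oligopeptide transporter relatives YALI0F09691 and YALI0E17589 (both similar to *S. cerevisiae* Opt2) differed in how far they departed from wild type. YALI0F09691 had 0.358, 0.811 and 1.52 CPM in wild type, 8.78, 19.1 and 2.04 CPM under the Yl*rep1*Δ label and 17.1, 6.26 and 4.06 CPM under the Yl*ngs1*Δ label. YALI0E17589 had 1.28, 1.90 and 2.59 CPM in wild type, 3.41, 7.62 and 2.94 CPM under the Yl*rep1*Δ label and 8.44, 4.32 and 3.66 CPM under the Yl*ngs1*Δ label. The ratio of mutant-labelled to wild-type mean was 11.0 for the first and 2.65 for the second. Of the 8 Opt2 relatives in the study's annotation, 6 of the 7 tested were called higher in Yl*ngs1*Δ-labelled libraries and 1 in Yl*rep1*Δ-labelled ones, and none lower. The annotation covers only genes that the study called different in these samples, and 2 of the 8 are the genes above, chosen for being higher. This count is therefore not independent evidence of a direction.

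The polyol transporter relative YALI0B06391 (*S. cerevisiae* Hxt17) had a single high library under the Yl*rep1*Δ label. It had 0.0924, 0.312 and 0.590 CPM in wild type, 0.585, 4.39 and 0.319 CPM under the Yl*rep1*Δ label and 6.81, 2.39 and 1.86 CPM under the Yl*ngs1*Δ label. Only replicate 2 of the Yl*rep1*Δ-labelled libraries was above the wild-type range. YALI0A05951 (*S. cerevisiae* Sng1, linked to phospholipid translocation and the cell wall) had 2.92, 3.60 and 5.30 CPM in wild type, 5.85, 12.8 and 7.60 CPM under the Yl*rep1*Δ label and 16.7, 11.2 and 5.58 CPM under the Yl*ngs1*Δ label. Its 2 lowest mutant-labelled libraries lay just above the wild-type range. In the study's annotation as a whole, 107 genes are transporters or permeases; 62 of the 101 tested were called higher and 20 lower under the Yl*ngs1*Δ label, and 16 higher and 1 lower under the Yl*rep1*Δ label. These and the list counts below carry the same limit.

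**Figure D4:**
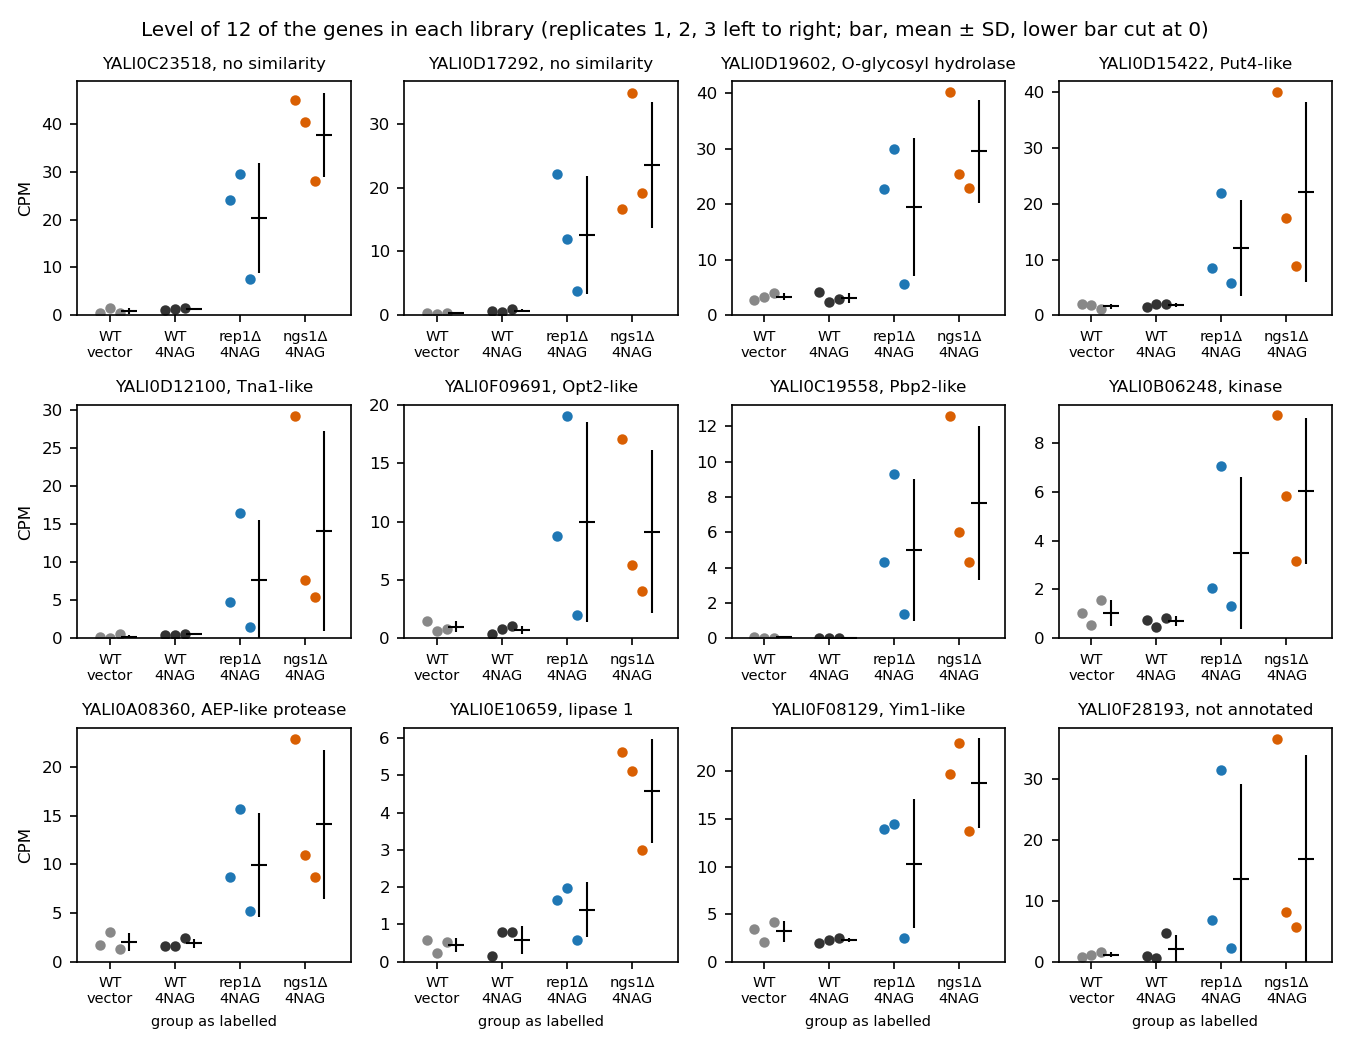
Level in CPM (vertical axes, each from 0) of 12 of the 54 genes in each library, grouped as labelled, with replicates 1, 2 and 3 from left to right in each group and the mean ± SD (n = 3) beside them. Wild-type points lie below the Yl*ngs1*Δ-labelled points in every panel, and within each deletion label the libraries spread widely, as in YALI0D12100, from 5.47 to 29.2 CPM under the Yl*ngs1*Δ label.

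Enzymes and other proteins linked to lipids were 4 of the 54. YALI0E10659, the gene of lipase 1 of *Y. lipolytica*, had 0.154, 0.556 and 0.795 CPM in wild type, 1.65, 1.97 and 0.574 CPM under the Yl*rep1*Δ label and 5.63, 5.12 and 2.99 CPM under the Yl*ngs1*Δ label. Here the groups under the 2 deletion labels did not overlap. YALI0F08129, weakly similar to *S. cerevisiae* Yim1, a protein of lipid droplets, had 2.00, 2.37 and 4.13 CPM in wild type, 14.0, 14.5 and 2.49 CPM under the Yl*rep1*Δ label and 19.7, 23.0 and 13.7 CPM under the Yl*ngs1*Δ label. Its Yl*rep1*Δ-labelled replicate 3 was at the wild-type level.

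The steryl ester hydrolase relative YALI0E00528 (*S. cerevisiae* Yeh2, which acts at the plasma membrane) had 3.18, 4.12 and 4.75 CPM in wild type, 9.26, 15.1 and 3.57 CPM under the Yl*rep1*Δ label and 15.5, 11.8 and 10.9 CPM under the Yl*ngs1*Δ label. YALI0E34463, similar to *C. albicans* Asm3, a putative secreted sphingomyelin phosphodiesterase, had 1.43, 1.80 and 2.15 CPM in wild type, 4.63, 8.47 and 2.62 CPM under the Yl*rep1*Δ label and 9.56, 3.47 and 4.28 CPM under the Yl*ngs1*Δ label. The ratios of mutant-labelled to wild-type mean were 2.69 and 3.13, among the smaller in the set. Among the 24 annotated lipases and lipid genes, all tested for Yl*ngs1*Δ, 16 were called higher and 1 lower under that label. Under the Yl*rep1*Δ label 2 of the 22 tested were called higher and 1 lower.

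Of the 54 genes, 2 are related to proteases. YALI0A08360, a relative of the alkaline extracellular protease of *Y. lipolytica*, had 1.28, 1.69 and 3.05 CPM in wild type, 8.73, 15.7 and 5.23 CPM under the Yl*rep1*Δ label and 22.9, 10.9 and 8.68 CPM under the Yl*ngs1*Δ label. YALI0D09042, similar to *S. cerevisiae* Prc1, the vacuolar carboxypeptidase Y, had 1.85, 2.78 and 3.44 CPM in wild type, 6.71, 11.6 and 6.19 CPM under the Yl*rep1*Δ label and 14.6, 7.73 and 4.40 CPM under the Yl*ngs1*Δ label. For both genes the lowest mutant-labelled library was above all wild-type libraries. The 50 annotated proteases as a whole did not share this direction: under the Yl*ngs1*Δ label 16 of the 49 tested were called higher and 20 lower, with a median log2 fold change of -1.07. Under the Yl*rep1*Δ label 6 of the 49 tested were called higher and 2 lower, with a median of -0.6.

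Of the 54 genes, 3 act on or bind RNA. YALI0C19558, similar to *C. albicans* Pbp2, a putative RNA-binding protein, had the largest ratio of all. Its reads in WT/Vec were 2, 1 and 1 and in WT/4NAG 0, 0 and 0, against 81, 208 and 22 under the Yl*rep1*Δ label and 224, 106 and 77 under the Yl*ngs1*Δ label. In CPM these were 4.31, 9.32 and 1.40 for Yl*rep1*Δ and 12.6, 6.03 and 4.34 for Yl*ngs1*Δ. Set against a floor of 3 counts over the whole WT/4NAG group (0.05 CPM), the mean was at least 153-fold higher under the Yl*ngs1*Δ label and at least 100-fold higher under the Yl*rep1*Δ label. The 6 mutant-labelled libraries were all far above wild type, and they still differed among themselves by up to 8.98-fold in CPM.

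The vacuolar RNase relative YALI0F25839 (*S. cerevisiae* Rny1, of the T2 family) had 7, 0 and 13 reads in WT/Vec and 3, 8 and 1 in WT/4NAG, and reached 2.87, 2.91 and 0.766 CPM under the Yl*rep1*Δ label and 3.83, 4.38 and 1.63 CPM under the Yl*ngs1*Δ label. The highest wild-type library was at 0.639 CPM, just under Yl*rep1*Δ-labelled replicate 3. The third, YALI0A12705, is similar to *Schizosaccharomyces pombe* ribonuclease H, which degrades RNA paired with DNA. It had 0.839, 1.23 and 1.91 CPM in wild type, 6.01, 10.5 and 3.38 CPM under the Yl*rep1*Δ label and 13.5, 7.68 and 5.07 CPM under the Yl*ngs1*Δ label. Of the 9 annotated ribonucleases and RNA-binding proteins that were tested, 6 were called higher and 2 lower under the Yl*ngs1*Δ label and none under the Yl*rep1*Δ label.

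The genes of polarity, signalling and the cell cycle were 4, of which 3 are described. The kinase YALI0B06248, annotated as similar to Alk1, had 0.462, 0.808 and 1.57 CPM in wild type, 2.08, 7.03 and 1.34 CPM under the Yl*rep1*Δ label and 9.11, 5.80 and 3.16 CPM under the Yl*ngs1*Δ label, with Yl*rep1*Δ-labelled replicate 3 inside the wild-type range.

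YALI0E34727, weakly similar to *S. cerevisiae* Lte1, which acts in the exit from mitosis, had 3.42, 3.95 and 5.94 CPM in wild type, 10.4, 16.1 and 7.21 CPM under the Yl*rep1*Δ label and 12.8, 14.8 and 12.2 CPM under the Yl*ngs1*Δ label. It was the most even of these across the Yl*ngs1*Δ-labelled libraries. YALI0C23925, weakly similar to the kinetochore protein Nnf1 of *S. cerevisiae*, had 0.397, 0.927 and 1.02 CPM in wild type, 1.28, 3.85 and 1.72 CPM under the Yl*rep1*Δ label and 3.04, 2.39 and 1.86 CPM under the Yl*ngs1*Δ label. Of the 27 annotated kinases, polarity and signalling genes, 21 were called higher and 2 lower under the Yl*ngs1*Δ label and 3 higher under the Yl*rep1*Δ label.

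Relatives of surface proteins were 3 of the 54. YALI0A00374 and YALI0E18700 are both annotated as weakly similar to YALI0E01210, and YALI0E28548 as weakly similar to its neighbour in locus order, YALI0E28534. YALI0A00374 had 0.0951, 0.529 and 1.02 CPM in wild type, 2.02, 2.37 and 0.830 CPM under the Yl*rep1*Δ label and 9.17, 5.17 and 2.25 CPM under the Yl*ngs1*Δ label. Yl*rep1*Δ-labelled replicate 3 was within the wild-type range, and the other 2 were far below Yl*ngs1*Δ-labelled replicates 1 and 2. The other two had ratios of mutant-labelled to wild-type mean of 3.10 and 3.16. The membrane proteins YALI0D06864 (weakly similar to *S. cerevisiae* Rsn1) and YALI0D08360 (weakly similar to a Golgi protein of *S. pombe*) had ratios of 7.01 and 7.11.

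The other 2 annotated enzymes had means over 20 CPM under the deletion labels. YALI0D19602, annotated with a hydrolase activity on O-glycosyl compounds, had 2.31, 3.11 and 4.15 CPM in wild type, 22.8, 30 and 5.62 CPM under the Yl*rep1*Δ label and 40.2, 25.5 and 22.9 CPM under the Yl*ngs1*Δ label. YALI0C23705, annotated with N-acetyltransferase activity, had 3.40, 4.17 and 5.16 CPM in wild type, 13.8, 28.8 and 8.11 CPM under the Yl*rep1*Δ label and 42.2, 18.4 and 11.8 CPM under the Yl*ngs1*Δ label. In both, Yl*rep1*Δ-labelled replicate 3 was the lowest mutant-labelled library and Yl*ngs1*Δ-labelled replicate 1 the highest.

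The largest group, 21 of the 54, has no similarity to a known protein in the study's annotation. YALI0C23518, first of the 54 by mean CPM and 7th per length, had 0.541, 1.19 and 1.55 CPM in wild type, 24.2, 29.5 and 7.53 CPM under the Yl*rep1*Δ label and 45.0, 40.5 and 28.0 CPM under the Yl*ngs1*Δ label. Its means were 1.09 ± 0.448 CPM in wild type (n = 6), 20.4 ± 11.5 CPM for Yl*rep1*Δ (n = 3) and 37.8 ± 8.81 CPM for Yl*ngs1*Δ (n = 3), a ratio of mutant-labelled to wild-type mean of 26.6. The lowest mutant-labelled library was 4.87 times the highest wild-type one.

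YALI0D17292, with a coding length of 294 bp, had 0.265, 0.426 and 0.954 CPM in wild type, 22.2, 11.9 and 3.77 CPM under the Yl*rep1*Δ label and 16.7, 34.9 and 19.2 CPM under the Yl*ngs1*Δ label, a ratio of 34.8 on 63 wild-type reads. Unlike most of the set, it was highest in Yl*rep1*Δ-labelled replicate 1 and Yl*ngs1*Δ-labelled replicate 2 within each label. YALI0B05434, whose product has a predicted transmembrane domain, had 1.92, 2.46 and 3.55 CPM in wild type, 23.7, 28.9 and 6.77 CPM under the Yl*rep1*Δ label and 32.8, 29.1 and 17.1 CPM under the Yl*ngs1*Δ label. YALI0D15136 had 3.37, 4.10 and 4.52 CPM in wild type, 22.5, 21.5 and 9.83 CPM under the Yl*rep1*Δ label and 27.8, 34.0 and 20.7 CPM under the Yl*ngs1*Δ label. Across the Yl*ngs1*Δ-labelled libraries, the highest was 1.61 to 2.09 times the lowest for these 4 genes and 2.3 to 5.34 times for the 6 transporter relatives. Other genes without a relative spread more widely than these 4, as YALI0F23353 did, from 6.31 to 34.2 CPM.

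YALI0F23353 had 1 high library under each label, as several transporter relatives did, while YALI0C00869 was well above wild type in all 6 mutant-labelled libraries. YALI0F23353 had 3.23, 4.80 and 5.31 CPM in wild type, 9.42, 32.2 and 11.0 CPM under the Yl*rep1*Δ label and 34.2, 8.87 and 6.31 CPM under the Yl*ngs1*Δ label. YALI0C00869 had 1.5, 2.32 and 2.77 CPM in wild type, 11.3, 18.6 and 5.62 CPM under the Yl*rep1*Δ label and 33.0, 15.3 and 10.7 CPM under the Yl*ngs1*Δ label. In each, Yl*ngs1*Δ-labelled replicate 1 was the highest of the 12 libraries. The remaining large ratios among genes without a relative were YALI0A20548 (17.0, on 16 wild-type reads) and YALI0E08932 (9.13). Over the 21 genes the ratio ran from 2.67 to 34.8 with a median of 4.38. In the whole annotation 145 genes have no similarity, of which 89 of the 141 tested were called higher and 23 lower under the Yl*ngs1*Δ label. Under the Yl*rep1*Δ label 21 of the 138 tested were called higher and 2 lower.

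The 2 genes without an annotation, YALI0B19470 and YALI0F28193, also had single high libraries under each label. YALI0F28193 had 0.713, 1.06 and 1.52 CPM in WT/Vec, 0.973, 0.647 and 4.67 CPM in WT/4NAG, 6.87, 31.4 and 2.17 CPM under the Yl*rep1*Δ label and 36.5, 8.19 and 5.75 CPM under the Yl*ngs1*Δ label. WT/4NAG replicate 3 was above Yl*rep1*Δ-labelled replicate 3, and no other wild-type library exceeded 1.52 CPM. YALI0B19470 had 3.02, 4.05 and 5.41 CPM in wild type, 6.81, 22.2 and 3.51 CPM under the Yl*rep1*Δ label and 19.0, 5.52 and 5.58 CPM under the Yl*ngs1*Δ label, so that 2 of its Yl*ngs1*Δ-labelled libraries were just above the wild-type range.

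Levels of different genes can be compared only per length. In FPKM (CPM per kilobase of coding sequence, as deposited), the 6 highest means over the mutant-labelled libraries all belonged to genes without a relative: 61.6 FPKM for YALI0D17292, 44.7 FPKM for YALI0C20801, 41.8 FPKM for YALI0D15136, 37.4 FPKM for YALI0B05434, 35.4 FPKM for YALI0E23606 and 35.0 FPKM for YALI0C07634. Their coding lengths were 294, 237, 543, 618, 114 and 261 bp. The median over the 54 was 6.69 FPKM and the lowest 1.46 FPKM, for the 3783 bp YALI0E34463. The median coding length was 1113 bp against 1212 bp for all genes, and 5 of the 54 (9.26%) were under 300 bp against 2.97% of all genes. The CPM limits of the rule take no account of length.

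The 54 genes were spread over all 6 chromosomes. Of the genes in the tables, 0.901% of those on chromosome A, 0.742% on B, 1.08% on C, 1.09% on D, 0.895% on E and 0.456% on F were among them, against 0.844% of all genes. No 2 of them were neighbours in the order of locus numbers, though some shared a neighbour, as YALI0F08085 and YALI0F08129 did with YALI0F08107 between them. Of their 106 neighbours, 99 were tested and 9 (9.09%) were called higher in the Yl*ngs1*Δ-labelled libraries, against 5.36% of all genes.

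Some of those neighbours were far more abundant. YALI0E18722, next to YALI0E18700, averaged 8.31 CPM in wild type, 384 CPM under the Yl*rep1*Δ label and 650 CPM under the Yl*ngs1*Δ label, and YALI0B19492, next to YALI0B19470, averaged 7.5, 95.2 and 106 CPM. No source used here gives the strand setting of the counts, so reads from an overlapping or antisense transcript cannot be told apart from those of a low gene.

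Whether the genes differed between the deletion labels was asked by comparing them directly. The means were higher under the Yl*ngs1*Δ label for 50 of the 54 genes and under the Yl*rep1*Δ label for 4: YALI0B19470, YALI0E23606, YALI0F09691 and YALI0F23353. The ratio of Yl*ngs1*Δ to Yl*rep1*Δ mean ran from 0.822 to 3.27 with a median of 1.42. The rule favours Yl*ngs1*Δ, since it asked its lowest library, and not that of Yl*rep1*Δ, to exceed wild type. Without Yl*rep1*Δ-labelled replicate 3, the mean was higher under the Yl*ngs1*Δ label for 38 genes. None of the 54 was called by edgeR, DESeq2 or limma. In edgeR 0 of 6016 genes were called, or 0.0%, 3 of the 54 had an unadjusted p under 0.05 against 1.18% of all genes, and log2 fold changes ran from -0.21 to 1.73 with standard errors of 0.27 to 0.97. Differences of about 2-fold were therefore not detectable for most of these genes.

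**Figure D5:**
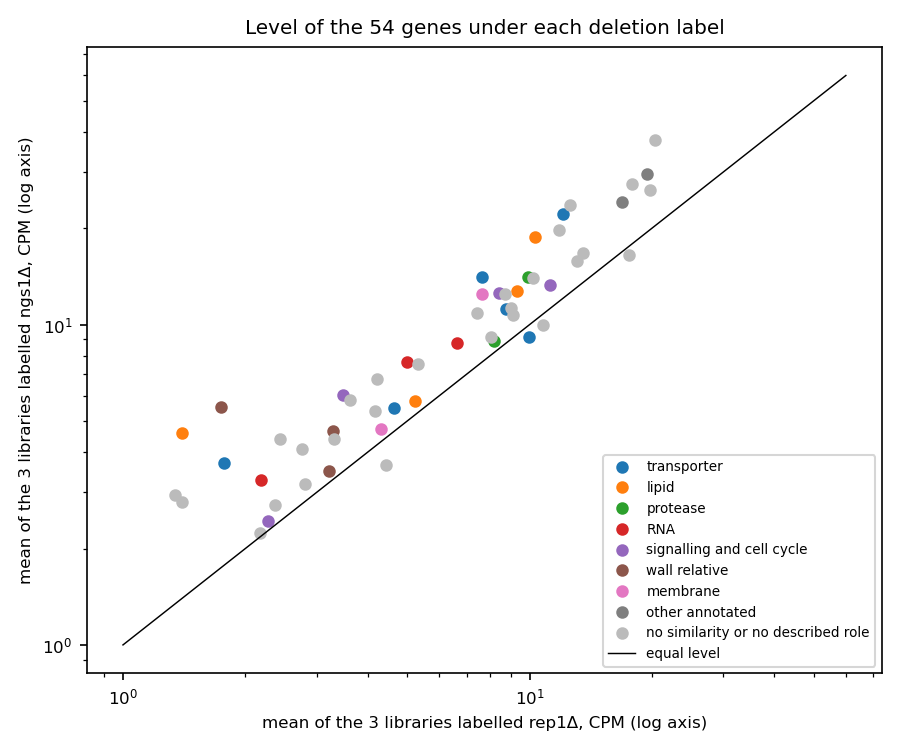
Mean level of each of the 54 genes in the 3 libraries labelled Yl*ngs1*Δ (vertical, CPM) against the 3 labelled Yl*rep1*Δ (horizontal, CPM), both on log axes, coloured by annotation, with a line at equal level. Of the 54 points 50 lie above the line, and those furthest above it are lipase 1 (YALI0E10659) and YALI0A00374.

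The 3 genes with an unadjusted p under 0.05 were all higher under the Yl*ngs1*Δ label. Lipase 1, YALI0E10659, had the largest difference, a log2 fold change of 1.73 ± 0.47 (SE), followed by YALI0A00374 with 1.66 ± 0.56 and YALI0F08085, without a relative, with 1.07 ± 0.40; the edgeR adjusted p was 1 for each. The lowest Yl*ngs1*Δ-labelled library of lipase 1, at 2.99 CPM, was above its highest Yl*rep1*Δ-labelled library, at 1.97 CPM. In the other direction the largest value was -0.21, for YALI0E23606.

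The edges of the rule were as follows. For the wild-type mean, YALI0F23353 (4.64 CPM) and YALI0B14685 (4.46 CPM) lay just inside, and YALI0D01221 (5.28 CPM, with 26.9 CPM under the deletion labels) and YALI0B10384 (6.05 CPM, with 28.6 CPM) just outside. For the mutant-labelled mean, YALI0F08085 (2.09 CPM) and YALI0A20548 (2.14 CPM) lay inside and YALI0A12573 (1.96 CPM) and YALI0E22396 (1.95 CPM) outside. For the ratio, YALI0B06028 (2.53) and YALI0B19470 (2.61) lay inside and YALI0C04048 (2.49) and YALI0D18502 (2.46) outside. Last, the lowest Yl*ngs1*Δ-labelled library exceeded the highest wild-type library by 0.107 CPM in YALI0B19470 and 0.168 CPM in YALI0B06028, and fell short of it by 0.188 CPM in YALI0D00363 and 0.222 CPM in YALI0E27181. Of the genes not in the study's tables, 84 failed only the wild-type ceiling.

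Under a mirrored rule, 5 of the 289 genes with a wild-type mean of 2 to 5 CPM were lower by the same ratio and did not overlap between Yl*ngs1*Δ-labelled and wild-type libraries. The 54 genes include 18 from the same band, counted after some genes were left out by name, which was not done for the 5. They were chosen for being higher, so the counts are no evidence of a direction. Genes under 2 CPM in wild type were not examined for falls.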

How the data were processed

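RNA-Seq libraries were made with a TruSeq kit from 12 samples in 4 groups of 3. Whole read counts per gene were deposited by the authors, with FPKM beside them. TopHat2 2.1.1 and Cufflinks 2.2.1 appear in the submitters' processing notes, as does a mouse build that the yeast gene identifiers contradict; the counting program and annotation were not given in the sources. The FPKM of the deposited tables equals CPM per kilobase of coding length, and that length was computed from it (a multiple of 3 for all 6400 genes). Each count column was matched to its sample by name. A gene missing from some tables (24 genes, none of the 54) was taken as 0.

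CPM is the count over the library's total, without further scaling. Groups were compared 3 against 3 with edgeR 4.0.16 in R 4.3.3 (TMM, filterByExpr, quasi-likelihood, two-sided, Benjamini-Hochberg over all genes tested). Standard errors were derived from each fold change and its F statistic. Alternatives were DESeq2 1.42.0, limma 3.58.1 with sample quality weights, other filters and scalings, a fit of all 12 libraries together, a replicate block, and leaving out each replicate. Each test was checked on simulated data. Figures used Python 3.11.15. Totals of 15667204 to 22650213 counts gave a median of 162 reads per gene over 6 wild-type libraries. Replicates of a group differed with a chi-square per degree of freedom of 7.37 to 14.4 (wild type) and 61.6 to 425 (deletion labels), so no library duplicated another of its group.

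The 54 genes, the annotation lists and the tests were chosen with earlier results of these data known, the study's tables of differential genes included. The named genes, most with full values and some by their ratio or threshold value alone, are those with the 10 highest mutant means, the 10 largest ratios, an annotation as transporter, lipase, protease, RNA-binding protein or kinase, or a place next to a threshold, except 1 gene whose values are not reported here; the other named genes were chosen after their values were seen. Promoters, protein families and genome positions were not analysed here, since the reference used a different set of locus tags. The study's own fold changes were not used.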

Additional observations from a re-analysis of the deposited data

How the results depend on the processing

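The number of genes that met the rule ranged from 42 to 57 under the planned changes to it (54 as written): 55 with TMM-scaled CPM, 48 and 55 with a wild-type ceiling of 4 and 6 CPM, 57 without the Yl*ngs1*Δ condition and 42 when the lowest of all 6 mutant-labelled libraries had to exceed wild type. Leaving out single libraries gave 48 to 62. The 10 genes called higher under the Yl*rep1*Δ label became 44 with DESeq2, 36 with all 12 libraries in a single fit and 23 with limma, and 0 to 41 when a replicate was left out. Of 64 genes called over the whole table, leaving out any WT/4NAG library left 1. The 50 called under the Yl*ngs1*Δ label ranged from 30 to 52 when a replicate was left out. No direction changed in the values tried for the 52 and 54 tested genes in these comparisons. Without a fold threshold, 1 gene (YALI0D01716) passed between the wild-type groups. With DESeq2 and limma, and with each library left out, that comparison and the comparison between the deletion labels called 0 of the 54.

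Replicate numbers did not pair the libraries: the correlation of same-numbered deviations was over 0.1 in 1 of the 12 pairs, although between the wild-type groups, at 0.044 to 0.0754, each sample correlated best with its own number. Between the deletion labels the correlation was -0.613, -0.501 and 0.201 for replicates 1, 2 and 3, so replicates 1 and 2 deviated in opposite directions. With the replicate number as a block, calls were 12 under the Yl*rep1*Δ label, 47 under the Yl*ngs1*Δ label, 0 between the wild-type groups and 0 between the deletion labels. These genes had a median of 162 reads over the 6 wild-type libraries, so depth limits what can be seen of them there. The causes of the differences between settings were not tested.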
